A study of Mus musculus with 108 samples.

Results

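The loci of 6 genes of the bone morphogenetic protein (BMP) response, Bmp4, Smad6, Smad7, Id1, Id2 and Id3, were followed through a reporter screen of open chromatin in mouse blood development. For each gene, the gene body and 100 kb on each side were taken as its window (GENCODE vM21, mm10), and every listed reporter fragment overlapping a window was collected. The 6 windows, of 21951 protein-coding windows in all, held 2666 distinct fragments of the 1177237 in the series. Overlapping fragments of the same class, distal or promoter as the study's lists divide them, were merged into sites, which gave 155 sites in the windows of 76779 in all. Of these, 135 were distal and 20 were promoter sites.

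BMP4 is a secreted ligand whose receptors phosphorylate SMAD1 and SMAD5, which enter the nucleus with SMAD4 and bind DNA. Smad6 and Smad7 encode the inhibitory SMADs, which block the receptors and are themselves induced by the signal. Id1, Id2 and Id3 are direct targets in many cell types and encode helix-loop-helix proteins without a DNA-binding region, which hold basic helix-loop-helix factors off DNA. BMP4 is also known as an inducer of mesoderm and of FLK1-expressing blood and endothelial precursors.

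The screen used 1 mouse embryonic stem cell line, HM-1, in which a single reporter cassette was placed at the Hprt locus. Each cassette carried 1 open-chromatin fragment, cut out by Tn5 transposase, before the HSP68 minimal promoter and Venus-YFP, so that a fragment was read at Hprt and not in its own locus. Cells were taken at 5 stages: ES cells (ES), FLK1-positive hemangioblast (HB), KIT+ TIE2+ CD41- early hemogenic endothelium (HE1), KIT+ TIE2+ CD41+ late hemogenic endothelium (HE2), and KIT+ TIE2- CD41+ blood progenitors (HP). Differentiation ran in serum, with VEGF and IL-6 in the blast culture, and all groups carried the same cassette. Sorting on YFP gave 4 gates, Negative, Low, Medium and High, in replicates 1 to 4, and 3 in replicate 5, where Medium and High were taken as 1 gate, for 95 libraries in all. The 5 pDONR and 5 pSKB plasmid lists, 1 for each stage's open chromatin, and 3 lists from HM-1 cells without a reporter were used for reference.

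A sorted list names each distinct fragment without its reads, so the level of a locus is given as distinct fragments per 10000 listed. The positive set of a stage and replicate joined the lists of all gates above Negative, 25 sets in all, and the 25 Negative lists were the Negative sets. Summed over sets, the positive sets listed 1598619 fragments and the Negative sets 524722. At an equal level a site is thus found in more positive than Negative sets, and counts of sets below carry this difference in depth. Listed fragments numbered 504 to 131091 per library and 2288814 in all. Replicates 1 and 2 were deep, with medians of 60062 and 41608 listed fragments per library, against medians of 1948, 1725 and 1112 in replicates 3, 4 and 5. In libraries of the latter size most windows were expected to hold 1 fragment or none, and a level was set by very few fragments. In HE1, the Medium library of replicate 2 shared 89479 fragments with the Negative library of replicate 1, 78.5% of the smaller list, and the Low library of replicate 4 shared 5686 with the Negative library of replicate 3, 83.0%. In ES and in HP, the Low library of replicate 2 shared 12252 and 5469 fragments with the Medium library of replicate 1, 34.8% and 35.0%. The median over 720 pairs of libraries was 2.68%. Stage labels could not be set against marker genes because the lists hold no expression. No label says that replicates came from separate cultures, so that p-values measure only the spread between these samples.

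Among the members' distal sites, 4 hold a sequence tied to this signal. SMAD1 and SMAD5 are known to bind GGCGCC, SMAD4 to bind GTCT, and enhancers of Id genes are known for the first followed after 5 bases by the second. Since that element was described from Id genes, its presence here is no independent evidence. On both strands, the spaced element lay in 4 of 135 distal sites of the 6 windows (2.96%) and in 34 of 58911 distal sites of the series (0.0577%). Among sites 574 to 1095 b wide, like these 4, the shares were 4 of 43 (9.30%) and 19 of 10836 (0.175%). These bounds are the smallest and largest width of the 4 sites themselves. All 4 were thus kept by construction, which raises the members' share. The element is in capitals in these stretches of 55 b (mm10), in the Id2 site on the minus strand and in the others on the plus strand, because these are the members' sequences in which both boxes stand in this order.

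Id2, 1.9 kb upstream of its start, chr12:25098834-25098888: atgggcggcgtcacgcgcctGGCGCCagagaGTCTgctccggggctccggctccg
Id1, 3.4 kb downstream, chr2:152739451-152739505: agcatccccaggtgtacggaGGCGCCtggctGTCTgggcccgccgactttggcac
Id3, 2.8 kb upstream, chr4:136140520-136140574: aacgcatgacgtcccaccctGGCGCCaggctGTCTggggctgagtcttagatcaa
Id3, 4.5 kb downstream, chr4:136147961-136148015: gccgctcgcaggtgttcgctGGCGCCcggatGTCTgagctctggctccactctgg

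All 4 elements lay between genes. The Id3 element 2.8 kb upstream was carried by 34 of the 62 distinct fragments of its site, in 29 positive and 8 Negative libraries. At Id2, 26 of 48 fragments carried it, in 19 positive and 7 Negative libraries, and at the downstream Id3 element 19 of 42 fragments did, in 20 positive and 6 Negative libraries. The Id1 element was carried by 1 of 4 fragments, in 1 positive library. The first 3 were thus recovered with and without YFP, at all 5 stages and in 4 replicates each. The listed fragment of 220 b at chr4:136140340-136140559, was the Id3 fragment with the element found in the most libraries, 10 positive and 5 Negative, and its GGCGCC and GTCT boxes are in capitals.

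Id3, 2.8 kb upstream, fragment: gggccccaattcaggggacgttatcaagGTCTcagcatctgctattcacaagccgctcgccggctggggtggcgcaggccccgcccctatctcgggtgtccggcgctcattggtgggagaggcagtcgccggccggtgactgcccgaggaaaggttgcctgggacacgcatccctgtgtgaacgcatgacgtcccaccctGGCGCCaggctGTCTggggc

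Of all 2170 distinct distal fragments of this length in the series, only the 1 printed above held the spaced element. Over the central 300 b of distal sites at least that wide, GGCGCC lay in 13 of 91 sites of the members (14.3%) against 5.91% of 29189 in the series. GTCT, a short box, lay in 96.7% and 92.3%. In promoter sites GGCGCC lay in 4 of 15 (26.7%) and in 26.7% of 15111. Of the RefSeq promoters (GRCm38.p6, 300 b), Bmp4, Smad6, Id2 and Id3 had an entry, none with the spaced element, which stood in 0.0731% of all 32851.

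The windows differed in how much they held. Smad6 (chr9:63953076-64022059, minus strand) had 712 distinct fragments over 40 distal and 2 promoter sites, Smad7 (chr18:75367529-75395935, plus) had 471 over 34 and 2, and Bmp4 (chr14:46383520-46390669, minus) had 67 over 6 and 3. Id1 (chr2:152736251-152737410, plus) had 757 over 24 and 6, Id2 (chr12:25093799-25097140, minus) had 153 over 5 and 1, and Id3 (chr4:136143497-136145755, plus) had 506 over 26 and 6. Distal fragments made up 62.9% of the members' fragments against 33.6% in the whole series, with 92.5% at Bmp4 and 45.2% at Id1. Each window also covered other genes, such as H13, Mcts2, Cox4i2 and Bcl2l1 around Id1, Rpl11, E2f2 and Asap3 around Id3, and Dym and Ctif around Smad7, and a site was not tied to the member by anything but distance.

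By gate, the members' fragments divided like those of the series. Fragments seen in positive sets only made up 64.7%, those seen in both 24.1% and those in Negative lists only 11.1%, against 65.5%, 24.6% and 9.96% of all distinct fragments. Of the 155 sites, 34 (21.9%) were positive at all 5 stages and 52 (33.5%) at 1 stage, against 22.3% and 37.7% of all sites. A fragment was seen in 1 library in 57.8% of cases here and in 56.1% overall. Promoter sites were positive at all 5 stages in 13 of 20 cases (65.0%), against 60.8% of promoter sites in the series, and distal sites in 21 of 135 (15.6%), against 10.7%.

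**Figure D1:**
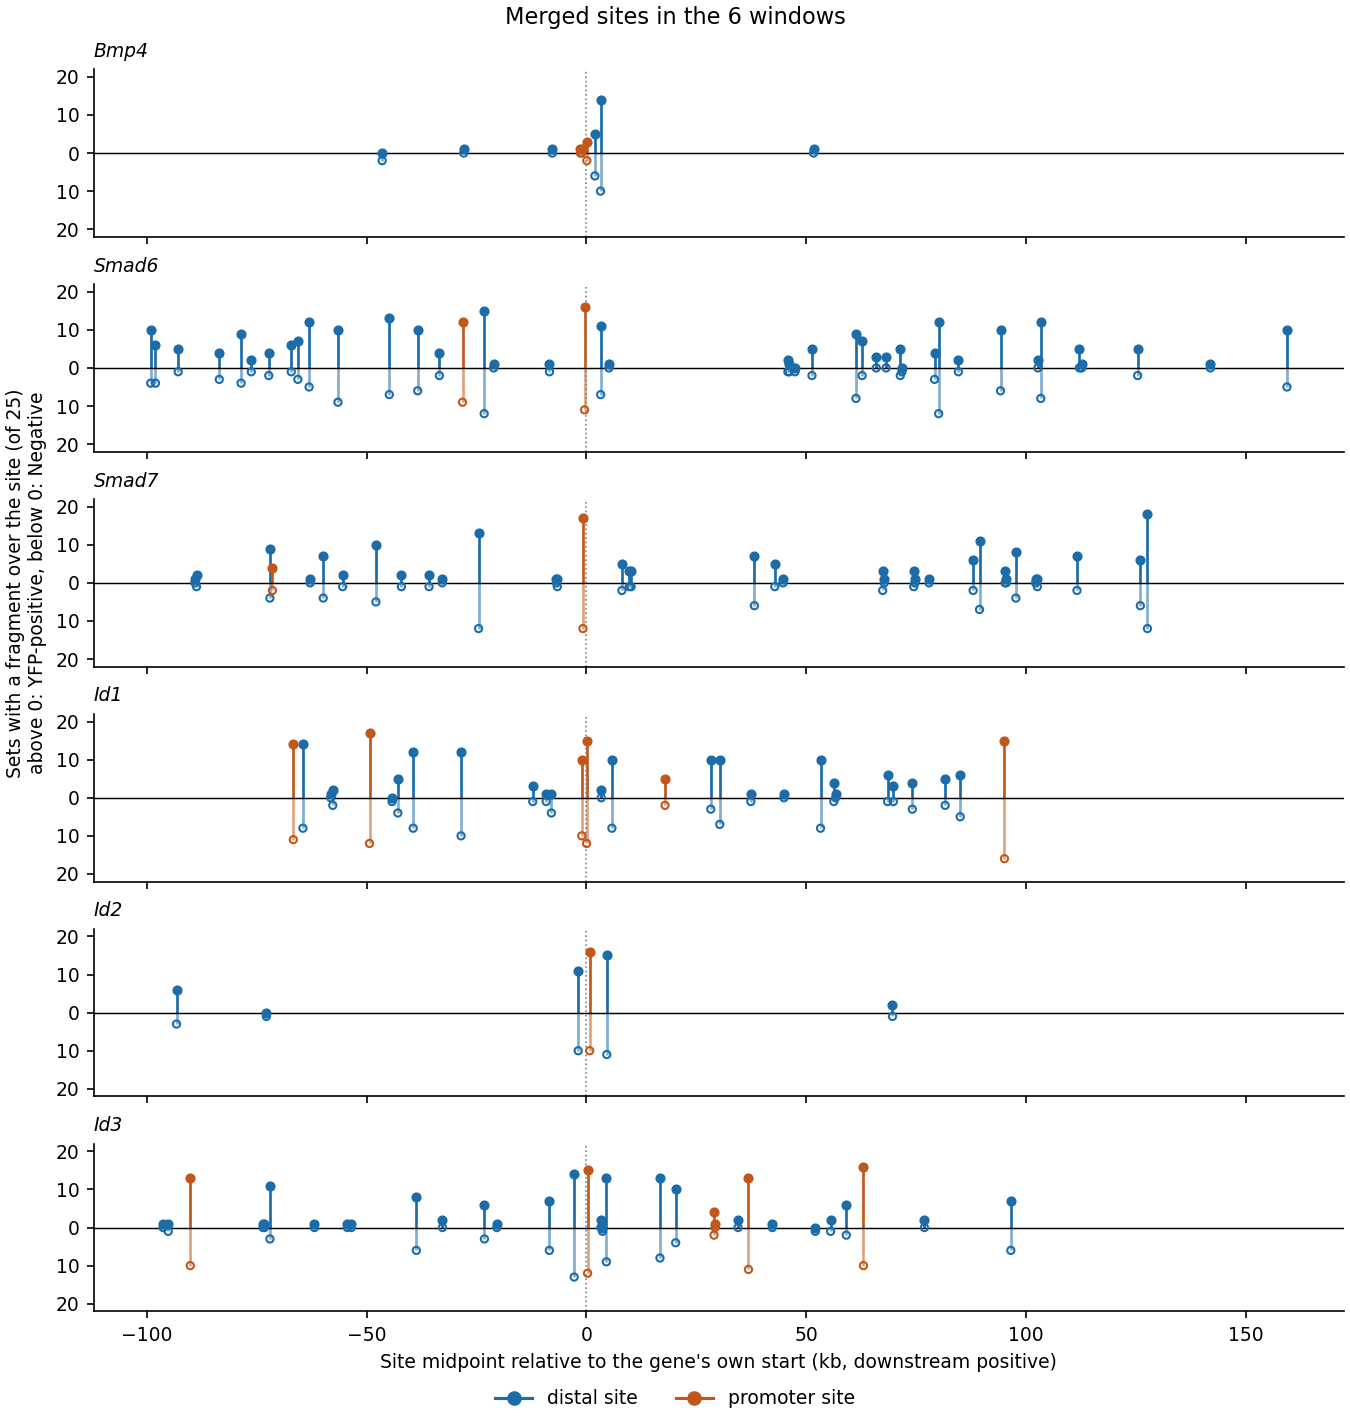
Every merged site in the 6 windows, placed by the distance of its midpoint from the gene's own start (kb, downstream positive). Bars above 0 give the number of the 25 YFP-positive sets with a fragment over the site and bars below 0 the number of the 25 Negative sets, in blue for distal and orange for promoter sites; Bmp4 and Id2 had few sites, while those of Smad6 and Smad7 lay across the window. Positive sets list more fragments than Negative sets, 1598619 against 524722, so the heights above and below 0 have unlike depth.

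Bmp4, the ligand gene, had the lowest level. Its positive sets ran from 0 through a median of 0.218 to 5.41 per 10000 (mean 0.674 ± 1.35, SD, n = 25) and its Negative sets from 0 through 0 to 2.53 (mean 0.436 ± 0.629, n = 25). Both sets overlapped over their whole range, and 14 positive sets held a fragment. Ranked by mean positive level, the Bmp4 window stood at the 29.9th percentile of all windows, whose median level was 1.70. These are levels per window, and windows differ in length.

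The 10 deep positive sets, those of replicates 1 and 2, ran from 0.200 to 0.871 at Bmp4 and the 10 deep Negative sets from 0.269 to 1.14. Of the 67 fragments, 44 lay in 1 distal site 3.2 kb downstream (chr14:46387039-46387880). This site overlapped an annotated exon of Bmp4 in part and held a fragment in 14 positive and 10 Negative sets. The promoter site over an annotated transcript start just inside the gene (chr14:46390481-46390663) had 3 fragments, seen in 3 positive and 2 Negative sets. Its supply in the pSKB lists was low too, 0.0153 to 0.0531 per 10000, and its pooled positive level was 0.0375. At Smad6, Id1, Id2 and Id3, the promoter site over an annotated transcript start was positive in 15 or 16 sets, with pSKB levels of 0.348 to 0.773 at Smad6 and 0.195 to 0.427 at Id3.

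Smad6, the first inhibitory SMAD, ran from 0 through 5.41 to 12.9 per 10000 in positive sets (mean 5.71 ± 3.00, SD, n = 25) and from 0 through 5.12 to 13.1 in Negative sets (mean 5.39 ± 3.49, n = 25). Its positive level stood at the 89.6th percentile of windows. The promoter site (chr9:64021666-64023287) held 108 distinct fragments and was positive in 16 sets and present in 11 Negative sets. The leading distal site lay 23.3 kb upstream between genes (chr9:64044846-64045781), with 84 fragments, 15 positive and 12 Negative sets.

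Smad7, the second, ran from 0 through 3.85 to 16.4 in positive sets (mean 4.16 ± 3.24, n = 25) and from 0 through 3.00 to 32.7 in Negative sets (mean 4.59 ± 7.05, n = 25). The highest Negative value came from 5 fragments of 1528 listed. Its promoter site began upstream of the start (chr18:75366245-75367231, 0.8 kb upstream at its midpoint) and held 99 fragments, in 17 positive and 12 Negative sets, and no promoter site covered an annotated Smad7 start. The distal site in the most positive sets of all 6 windows, 18, with 12 Negative sets and 70 fragments, lay 127.6 kb downstream in an intron of Ctif (chr18:75494584-75495723).

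Among the Id genes, Id1 ran from 0 through 5.86 to 12.9 in positive sets (mean 5.40 ± 3.06, SD, n = 25) and from 0 through 6.89 to 18.0 in Negative sets (mean 6.50 ± 4.80, n = 25). An annotated start was covered by a promoter site (chr2:152735880-152736711) with 66 of the 757 fragments, in 15 positive and 12 Negative sets. Much of the window belonged to neighbours, since the site over the Bcl2l1 start, 95.1 kb downstream, alone held 164 fragments. The leading distal site lay 64.5 kb upstream in an intron of H13 (chr2:152671333-152672185), in 14 positive and 8 Negative sets.

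Id2 ran from 0 through 1.23 to 7.13 in positive sets (mean 1.95 ± 1.90, SD, n = 25) and from 0 through 0.715 to 17.1 in Negative sets (mean 2.16 ± 4.44, n = 25). The promoter site, over a transcript start inside the gene (chr12:25096082-25096711), held 50 fragments, in 16 positive and 10 Negative sets. The distal site in the most sets lay 4.6 kb downstream (chr12:25092128-25092898), in 15 positive and 11 Negative sets, and together with the site holding the spaced element these 3 made up most of the locus.

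Id3 ran from 0 through 4.35 to 13.7 in positive sets (mean 5.11 ± 2.59, n = 25) and from 0 through 4.28 to 19.6 in Negative sets (mean 6.46 ± 5.93, n = 25). It had a fragment in 24 positive sets, the most of the 6. Its promoter site (chr4:136143211-136144308) held 111 fragments, in 15 positive and 12 Negative sets, and its leading distal site was the one with the spaced element 2.8 kb upstream (chr4:136140332-136141088), in 14 positive and 13 Negative sets.

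In order of mean positive level, Smad6, Id1, Id3 and Smad7 lay within 1 SD of each other, Id2 came below them and Bmp4 last. In the deep sets, the highest Bmp4 value, 0.871, lay just above the lowest Id2 value, 0.800, and the highest Id2 value, 1.77, lay below the lowest of the other 4 genes, 2.46 at Smad7.

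**Figure D2:**
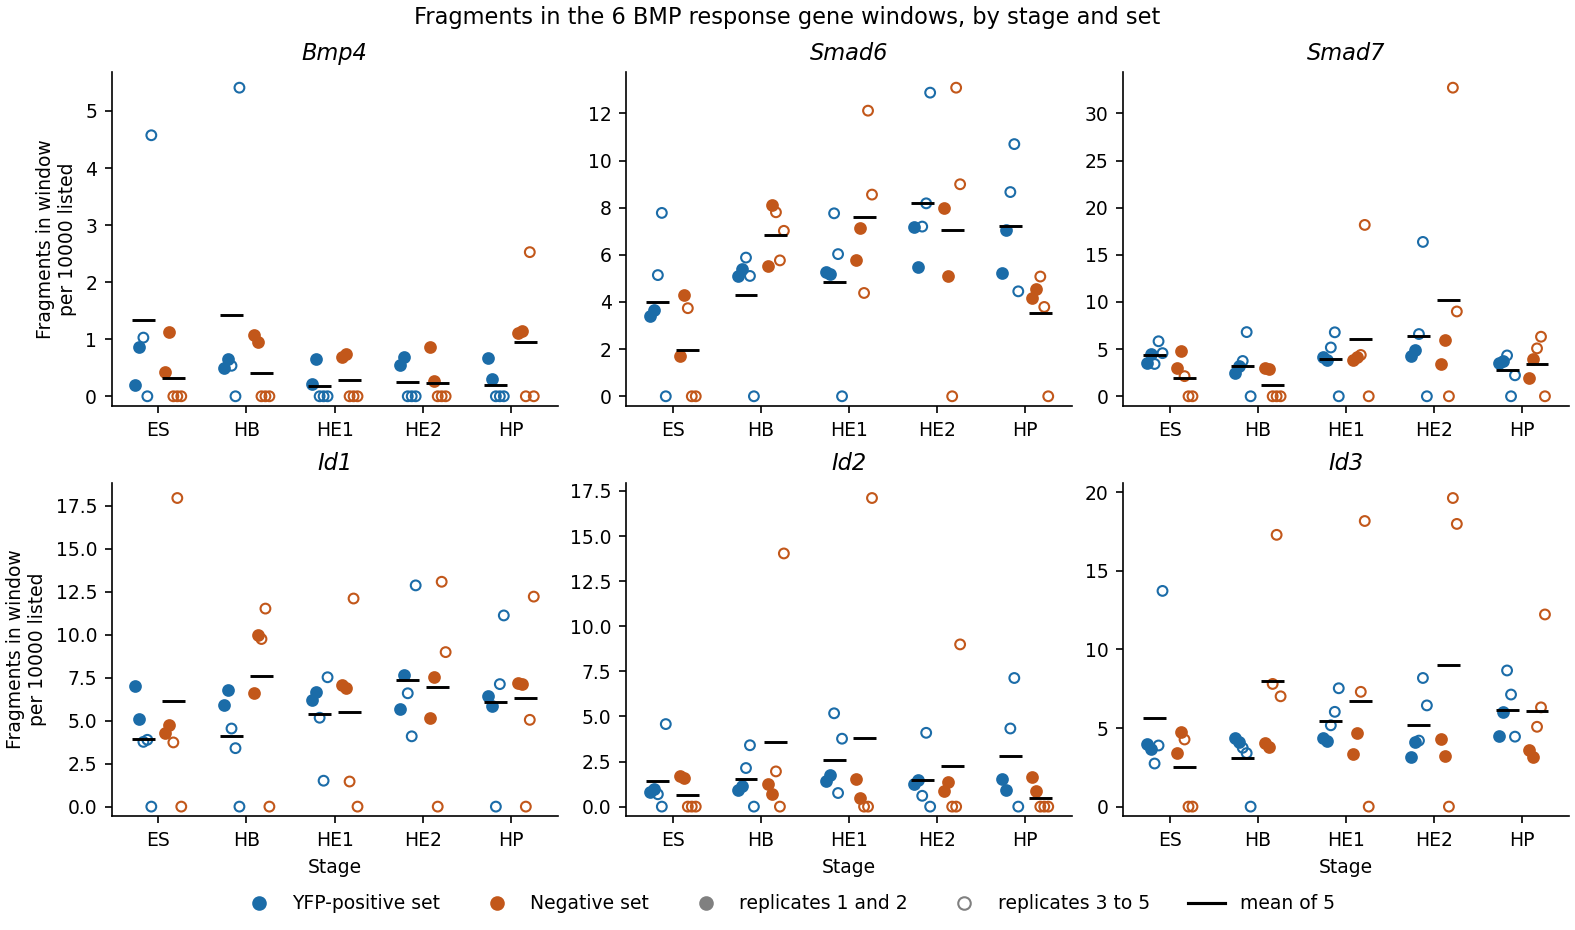
Fragments in each window per 10000 listed, by stage, with a point for each of 5 replicates of the YFP-positive set (blue) and the Negative set (orange) and a black line at their mean. Filled points are the deep replicates 1 and 2, which lie close together, and open points are replicates 3 to 5, which spread from 0 to the highest values.

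The first comparison asked whether a locus gave more of its fragments to positive than to Negative cells. With limma on log2(fragments per 10000 + 1), stage as a covariate and Benjamini-Hochberg adjustment over 17589 windows, 0.00% of windows and 0 of the 6 members passed an adjusted p of 0.05. At an unadjusted p under 0.05 there were 1167 windows, none of them a member. The log2 differences were 0.34 (SE 0.29) at Id2, 0.31 (SE 0.33) at Smad7, 0.16 (SE 0.32) at Smad6, 0.10 (SE 0.16) at Bmp4, 0.06 (SE 0.32) at Id3 and -0.02 (SE 0.32) at Id1. The median over all windows was itself 0.17, so that Id2 and Smad7 lay above it and the other 4 at or below it, each by less than 1 SE. These differences of logs need not follow the other summaries, and the mean levels of Id2 and Smad7 were lower in positive than in Negative sets. At Bmp4 the pooled level was 0.532 in positive and 0.781 in Negative sets, and 9 of 10 deep positive sets lay below the Negative set of the same stage and replicate. This count was 6 at Smad6 and Id1, 5 at Smad7 and Id2 and 3 at Id3, and the deep Bmp4 sets held 1 to 13 fragments each. The share of all windows with such a count is not given, so these counts only describe the members. The differences of Bmp4, Smad6, Smad7, Id1 and Id3 each changed sign under at least 1 other setting.

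Within stages, limma called 0.00% of windows and 0 members in each of ES, HB, HE1, HE2 and HP, with 199 to 467 windows and no member at an unadjusted p under 0.05. The largest differences were -1.16 (SE 0.63) for Id3 in HB, 1.17 (SE 0.75) for Smad7 in ES, 1.11 (SE 0.74) for Id3 in ES, 1.08 (SE 0.70) for Id2 in HP and 1.04 (SE 0.75) for Smad6 in HP. Id3 in HB had positive levels of 4.35, 4.10, 3.74, 3.40 and 0 against Negative levels of 4.05, 3.81, 7.80, 17.3 and 7.02. The deep replicates, given first, were alike in both sets, and the small ones differed. The HE1 differences rest in part on the libraries that share fragments. Without those 4 libraries the mean positive level of Smad7 in HE1 was 6.77 ± 8.02 (SD, n = 5) instead of 4.00 ± 2.51, and that of Bmp4 was 0.113 ± 0.161 instead of 0.175 ± 0.286. Smad6 went from 4.85 ± 2.90 to 6.13 ± 4.51, and the other 3 genes moved less than Smad7. On the Negative side, where 3 sets remained, Id2 went from 3.83 ± 7.45 (n = 5) to 5.87 ± 9.74 (n = 3).

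The second comparison set the higher gates, Medium, High and Medium/High, against the Low gate. Again 0.00% of 17212 windows and 0 members were called by limma, with 563 windows at an unadjusted p under 0.05, of which Id2 was the 1 member. Id2 ran from 0 through 1.46 to 11.8 per 10000 in the higher gates (n = 25) and from 0 through 0.481 to 8.26 in the Low gate (n = 25). The sets overlapped, and 20 higher sets and 13 Low sets held a fragment. The difference was 0.78 (SE 0.30) on the log2 scale, with an unadjusted p of 0.0102 and an adjusted p of 1.00 from limma, where the median of all windows was 0.08.

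Pooled over stages in the deep replicates, Id2 stood in Low at 0.947 in replicate 1 and 1.03 in replicate 2. Its Medium level was 1.53 and 1.37 and its High level 1.24 and 1.35, so that both higher gates were above Low in both replicates. The Negative gate, however, gave 1.43 and 1.00. Over HB and HE2 alone, where no pair of libraries shared as much, Low was 0.674 and 1.19, Medium 1.48 and 1.04, and High 1.03 and 1.53, so that Medium was below Low in replicate 2. The other differences were 0.54 (SE 0.37) at Id3, 0.18 (SE 0.37) at Smad6, 0.12 (SE 0.36) at Smad7, -0.17 (SE 0.16) at Bmp4 and -0.23 (SE 0.37) at Id1, and those of Smad7, Bmp4 and Id1 changed sign under other settings.

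**Figure D3:**
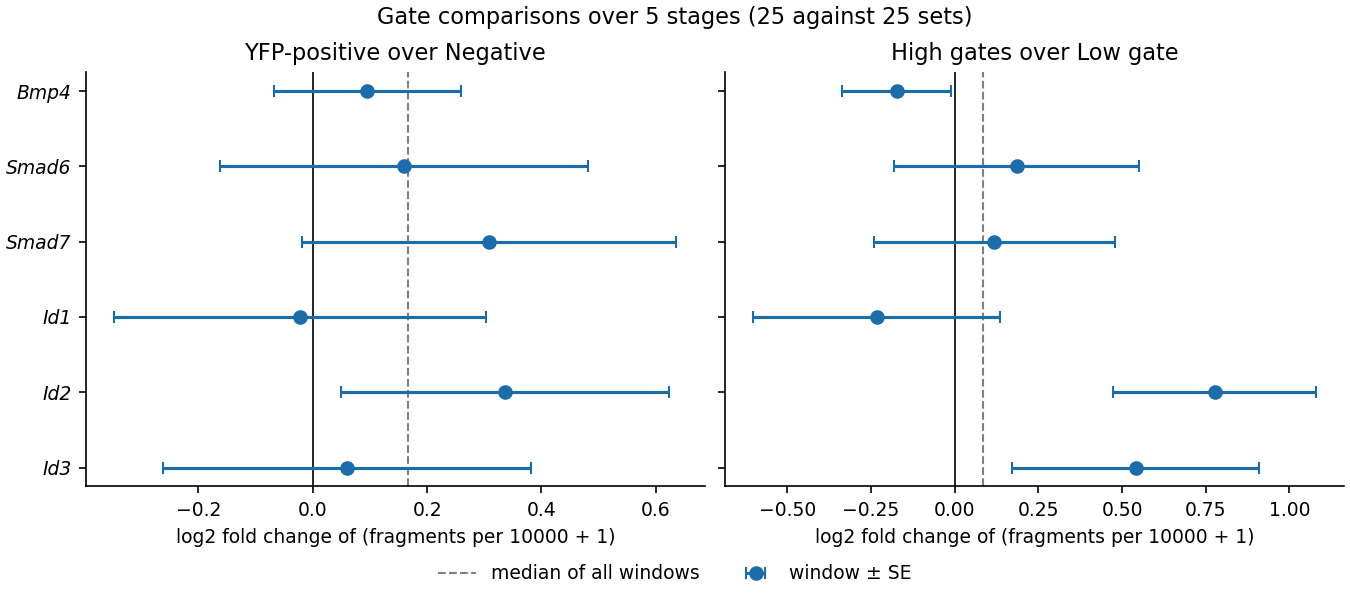
Difference of each window between YFP-positive and Negative sets (left) and between the higher gates and the Low gate (right), as log2 fold change of fragments per 10000 with 1 added, with bars of 1 SE from limma. The dashed line is the median of all windows, 0.17 and 0.08; only Id2 in the right panel lies more than 2 SE from it.

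Of the 28 sites of the members that had a fragment in enough sets to be tested between positive and Negative, 0 were called, nor were any of 10021 tested in all (0.00%; 429 at an unadjusted p under 0.05). The 2 members' sites among the latter were the Id2 promoter (0.38, SE 0.17, unadjusted p = 0.0297, limma) and the Smad7 promoter (0.39, SE 0.19, unadjusted p = 0.0459, limma). Between higher gates and Low, 0 of 23 sites were called against 0.00% of 8414, and the 2 at an unadjusted p under 0.05 of 231 were promoter sites of neighbours, Mcts2 in the Id1 window (-0.42) and Asap3 in the Id3 window (0.46).

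A list of 31 further BMP pathway genes (ligands such as Bmp2, receptors, SMADs, antagonists and other targets) gave no call either. Depending on the comparison, 29 to 31 were tested, and limma called 0 in either direction in each of the 8 comparisons of windows. Between positive and Negative sets their median difference was 0.17 and that of all windows 0.17, and between higher gates and Low it was 0.06 against 0.08.

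The third comparison asked whether the positive level changed over the 5 stages. By limma's F test 41 of 18278 windows passed (0.224%), with 667 at an unadjusted p under 0.05, and 0 members were in either count. The smallest unadjusted p among the members were 0.0752 at Bmp4 and 0.169 at Smad6. At Smad6 the positive levels of replicates 1 to 5 were 3.40, 3.68, 5.14, 7.78 and 0 in ES, 5.09, 5.41, 5.88, 5.104 and 0 in HB, and 5.27, 5.17, 7.76, 6.03 and 0 in HE1. They were 7.19, 5.47, 7.20, 8.18 and 12.9 in HE2 and 5.22, 7.06, 8.66, 10.7 and 4.45 in HP. Both deep ES values lay below the deep values of all other stages, while the small replicates overlapped. The share of all windows with such an order is not given, so it only describes Smad6.

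When each set was weighted by its own precision (limma arrayWeights), Smad6 was called over stages (adjusted p = 0.00218), as were 15.9% of all windows. Of the 43 member sites tested, 0 were called without weights (0.00646% of 15491 sites) and 7 with them (6.62% of all sites). The 7 were 5 Smad6 sites, at 94.2 and 3.2 kb downstream and 23.3, 38.4 and 56.5 kb upstream, and 2 in the Id1 window, at 5.8 kb downstream and, in an intron of Bcl2l1, at 53.3 kb downstream. A site was tested only with a fragment in 40% of the positive sets, so one absent from a stage passed through the other stages. The Smad6 sites at 94.2, 38.4 and 56.5 kb and both Id1 sites had just enough, 10 of 25 sets. These calls thus draw on the presence and absence that admitted the sites, and are given as a description.

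These sites differed by stage in more than 1 way. The Smad6 site 94.2 kb downstream had no sorted fragment in HP, with 0 of 269654 in positive sets, which allows up to 0.111 per 10000. The one 3.2 kb downstream had none in HE1, with 0 of 446820, which allows up to 0.0671. Negative sets of those stages had none either. The Smad6 sites 23.3, 38.4 and 56.5 kb upstream and the Id1 site 53.3 kb downstream had none in ES. The Id1 site 5.8 kb downstream had fragments at every stage, with a pooled positive level from 0.0692 in HB to 0.470 in HE1.

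For the Smad6 site 23.3 kb upstream, chosen among these because it led its window, the positive levels in replicates 1 to 5 were 0.739, 0.574, 1.07, 1.70 and 0 in HB, 0.609, 0.507, 0, 2.26 and 0 in HE1, 1.03, 0.771, 1.20, 8.18 and 0 in HE2, and 0.569, 0.751, 4.33, 3.57 and 0 in HP. In ES all 5 were 0, with 0 of 239887 listed fragments, which allows a level of up to 0.125 per 10000 (3 counts, counting error only). The Negative sets had the same gap, 0 of 88751 listed in ES, which allows up to 0.338, against pooled levels of 0.823, 0.496, 0.794 and 0.977 in HB, HE1, HE2 and HP. Without weights, limma's adjusted p over stages was 1.00 (unadjusted p = 0.0858). The fragment of this site found in the most libraries, 14 positive and 3 Negative from HB to HP, is shown as an example of the site's many fragments after the ES stage. It lay at chr9:64045247-64045436 (190 b), and its 6 GTCT boxes, read on either strand, are in capitals.

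Smad6, 23.3 kb upstream, fragment: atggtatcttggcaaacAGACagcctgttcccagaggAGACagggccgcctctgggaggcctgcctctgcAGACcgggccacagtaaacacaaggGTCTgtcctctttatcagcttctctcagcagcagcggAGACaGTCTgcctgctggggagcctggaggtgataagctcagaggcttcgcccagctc

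The plasmid lists, made from open chromatin before any sort, had little of this site at ES. The ES pDONR list held 14 of its fragments (0.0247 per 10000) and the other 4 pDONR lists 0.273 to 0.318. The pSKB lists gave 10 fragments (0.0590) at ES and 0.282 to 0.399 at the other stages. Such a gap was seen at more of the members' distal sites. Of 30 that were positive in at least 10 sets, 8 (26.7%) had no ES fragment in any sorted list, positive or Negative, against 459 of 5068 such sites in the series (9.06%). They were 4 Smad6 sites, 80.1 kb downstream and 23.3, 38.4 and 56.5 kb upstream, 3 in the Id1 window, 28.3, 30.3 and 53.3 kb downstream, and 1 Id3 site 20.3 kb downstream. At the site 56.5 kb upstream of Smad6 the pDONR level was 0.00353 at ES and 0.0659 to 0.364 at the other stages, and the ES pSKB list had no fragment. A site without ES fragments could reach 10 sets only through the later stages. Of the 8, 4 also shared the Smad6 window, so they are no independent count. With at least 15 positive sets required, the count was 1 of 3 member sites against 3 of 576 in the series (0.521%). The 8 sites were chosen after their values were seen, and no test is given. By the methods, fragments outside ATAC-seq peaks were removed, and no source used here says whether the peaks were those of the same stage. The part of that filter and of the plasmid supply in the missing ES fragments was not tested.

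**Figure D4:**
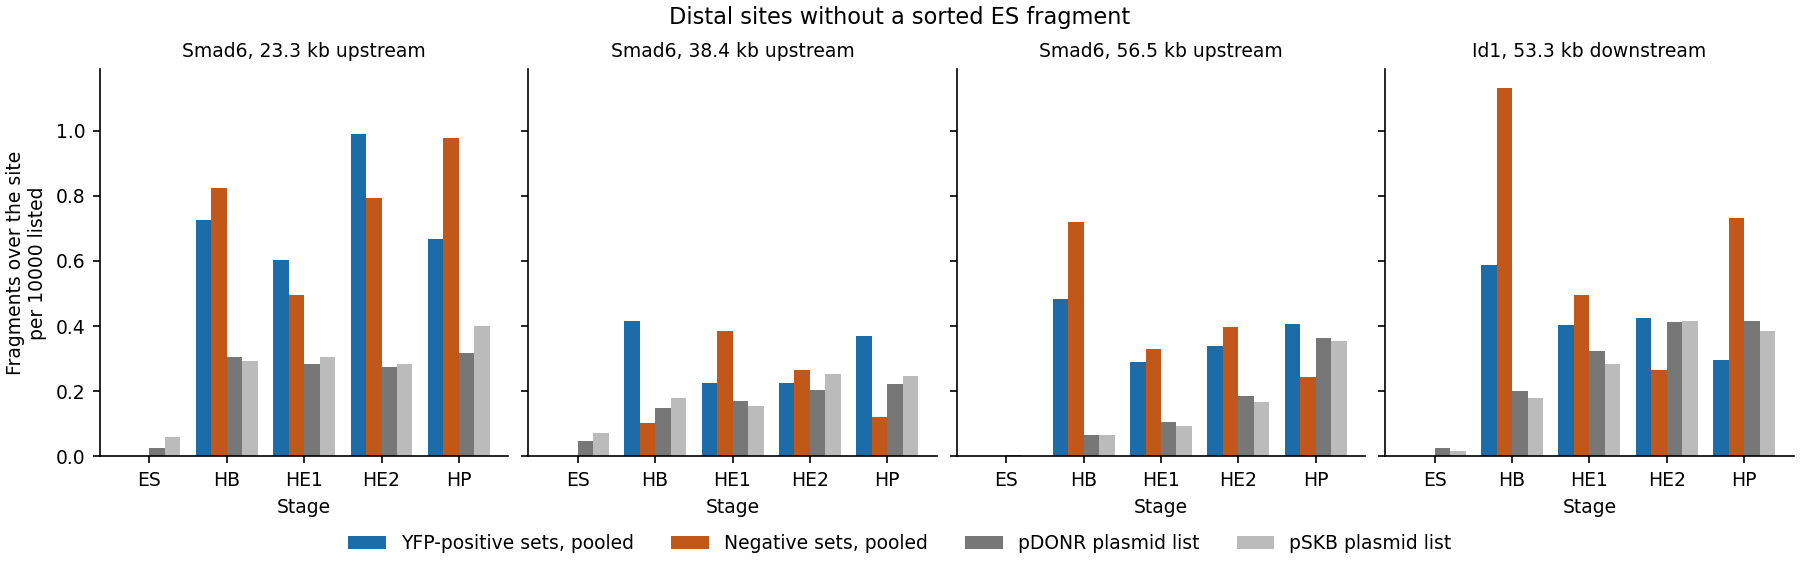
Fragments per 10000 listed over 4 distal sites by stage, pooled over the 5 positive sets (blue) and the 5 Negative sets (orange), and in the single pDONR (dark grey) and pSKB (light grey) list of each stage. The sites are those of the 8 without a sorted ES fragment that were also called over stages with weights; all lack sorted bars at ES, where the plasmid bars are at or below 0.0708.

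Plasmid supply was also read for whole windows. All 155 sites were in at least 1 plasmid list, 144 in all 5 pDONR lists and 103 in all 5 pSKB lists. The Smad6 window made up 3.55 per 10000 pSKB fragments at ES, 4.45 at HB, 6.04 at HE1, 5.61 at HE2 and 5.23 at HP, and its pooled positive level was 3.79, 5.30, 5.24, 6.59 and 5.75. Both were lowest at ES, and the ratio of positive to plasmid level ran only from 0.868 to 1.19. Id1 had more positive fragments than plasmid fragments at every stage, with ratios of 1.39 to 1.55, as did Id3 with 1.09 to 1.66. The Negative sets of both genes also exceeded the plasmid at every stage, with ratios of 1.26 to 1.90 at Id1 and 1.19 to 1.31 at Id3. Over its whole window Bmp4 had fewer positive than plasmid fragments, with ratios of 0.499 to 0.766, and in Negative sets its ratios ran from 0.678 to 1.52. Smad7 ran from 0.809 to 1.13 and Id2 from 0.618 at ES to 1.25 at HE1. At the Bmp4 site 3.2 kb downstream, however, the level pooled over stages was 0.375 in positive and 0.515 in Negative sets. Its pSKB levels were lower, 0.124 to 0.254. The methods name an ATAC-seq peak filter for the screen fragments and none for the plasmid lists. Ratios of whole windows thus set unlike lists side by side. There was 1 plasmid list per vector and stage, so these ratios have no replicate error, and the lists differ in depth.

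**Figure D5:**
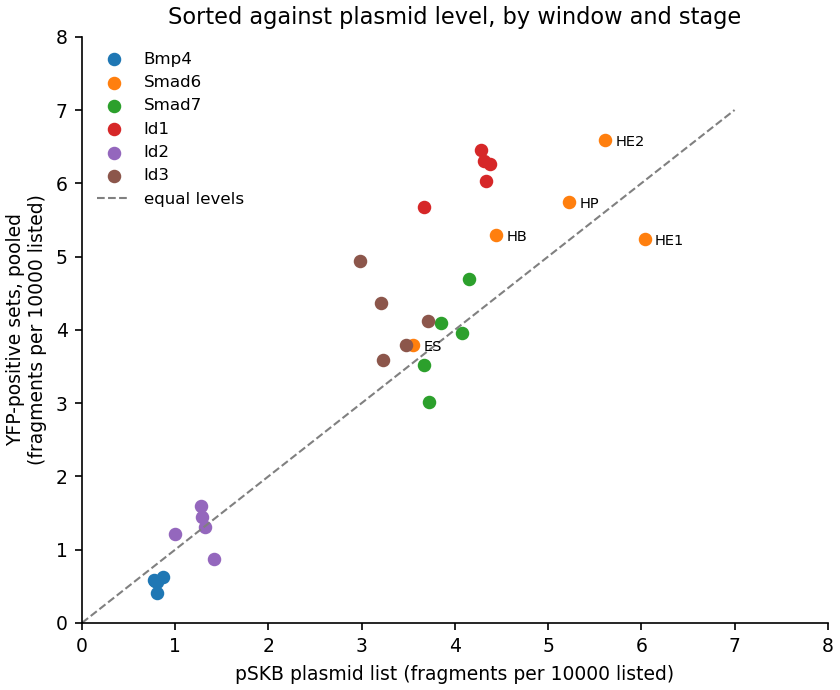
Pooled YFP-positive level of each window against its level in the pSKB plasmid list of the same stage, both in fragments per 10000 listed, with a point for each of 5 stages and the stage named for Smad6. Id1 (red) and Id3 (brown) lie above the line of equal levels, Bmp4 (blue) below it, and the other genes on both sides.

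Of the members' distinct fragments, 80.0% were identical to a plasmid fragment, as were 80.5% in the series. Over the leading sites only a small part of the plasmid fragments was recovered in any sorted list, for example 4.17% at the Smad6 promoter, 4.93% at the Id2 promoter, 8.94% at the Id3 promoter and 9.16% at the distal Id2 site. In the HM-1 cells without a reporter, 6 of the members' sorted fragments were found.

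Across the 25 positive sets, the log2 levels of members moved together weakly at most. Pearson's r was 0.55 for Id2 and Id3 and 0.45 for Smad6 and Id1, but -0.69 for Bmp4 and Smad6. The sets share stage and depth, and small sets at 0 or at high values weigh most. Of 8060 other windows, the one most like Smad6 was Prdm10 (r = 0.92), and the others were Klhl40 for Id1 (0.92), Tbc1d16 for Smad7 (0.91), Papolb for Id3 (0.86), Gcc2 for Id2 (0.80) and Enah for Bmp4 (0.76), each the highest of that many and given as a description.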

How the data were processed

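Per the methods, the authors trimmed reads with Trim Galore, aligned them to mm10 with Bowtie2 (SAMtools, bedtools), wrote each read pair as 1 interval and removed duplicates. They removed fragments found in HM-1 cells without a reporter, kept those in the plasmid lists, and kept those in ATAC-seq peaks. HOMER is also named in the submitters' processing notes. The deposited sorted lists hold only starts and ends, each fragment once, so no read count was available for them. The plasmid and control lists were deposited by the authors with a read count per fragment. The filters were not exact in the lists: 80.5% of distinct sorted fragments were identical to a plasmid fragment (3.44% before starts were moved by 1 bp) and 3733 to a control fragment.

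Starts were counted from 1. Fragments ran from 68 to 600 b. Levels were distinct fragments per 10000 listed, and limma 3.58.1 (R 4.3.3; lmFit, eBayes with trend) was run on log2(level + 1) over all protein-coding windows, or all sites, that held a fragment in 40% of sets or more, with Benjamini-Hochberg adjustment at 0.05. Folds on this scale understate changes of low loci. Scripts were tested on simulated data. Counting error is the only error that floors of 3 counts cover. Same-numbered sets were checked for shared deviations. The correlation ran from -0.02 to 0.41. It was over 0.1 in every pair in the high against low comparison in ES and between ES and HB, and in 4 of 5 pairs in most other checks. The main fits did not pair the samples, so a shared part may be left in their error. With a replicate block, 1966 instead of 1167 windows had an unadjusted p under 0.05 between positive and Negative sets. Between higher gates and Low there were 1040 instead of 563, and 0 windows were called in both.

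Named sites were, for each gene, the distal site and the promoter site (over an annotated transcript start, or else in the window) positive in the most sets, and any site called in a comparison. Sites with the spaced element, those without ES fragments and those named at an unadjusted p were named after their values were seen. The members, the pathway list, the motifs and the rules were chosen with earlier results of these data known. The alternatives were another pseudocount, no filter, a replicate block, array weights, plasmid-identical fragments, fewer replicates, distal or promoter fragments, 50 kb flanks, other gate unions, shared fragments left out and 4 HE1 libraries left out (for the levels, chosen after seeing the data, as was the use of HB and HE2 alone). The gate comparisons over all stages were also run on the mean over stages per replicate. Python 3.11.15, pandas 2.3.3, numpy 2.4.6 and matplotlib 3.10.9 were used.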

Additional observations from a re-analysis of the deposited data

Results flagged for a closer look

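Of 60 groups of 5 sets (6 genes, 5 stages, positive and Negative), 13 had 1 set whose gap to the nearest other exceeded 0.71 of the range, of which 10 were high. For normal values of equal spread this rule flags about 1 group in 20. These sets differ in depth, so that rate is no measure here. All 13 sets came from replicates 4 and 5, had at most 2186 listed fragments and held at most 5 fragments in the window. Among positive sets, replicate 5 gave 4.57 per 10000 for both Bmp4 and Id2 and 13.7 for Id3 in ES, and in HB 5.41 for Bmp4 and 0 for Smad6 and Id3. Among Negative sets, replicate 4 gave 18.0 for Id1 in ES, 18.2 for Smad7 in HE1 and 32.7 for Smad7 in HE2. Replicate 5 gave 14.0 for Id2 in HB, 17.1 for Id2 in HE1, 8.99 for Id2 in HE2 and 0 for Smad6 in HP.

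In HM-1 cells without a reporter, control list 2 held 5 fragments in the Smad6 window, 5 in the Smad7 window and 4 in the Id3 window. These were flagged by a rule of more than 3 fragments, which takes no account of the window's usual share. Of the 10895 fragments in that list, they make up 4.59, 4.59 and 3.67 per 10000. The pSKB lists gave these windows 3.55 to 6.04, 3.67 to 4.15 and 2.98 to 3.71 per 10000. No cause was tested.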

How the results depend on the processing

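In the 11 limma comparisons, 161 of 163 alternatives called 0 members, as reported. With arrayWeights the stage comparison called 1 window and 7 sites of the members. Over all windows that comparison called 41, and between 1 (distal fragments only) and 55 (replicate block) under the other settings, 13 with High and Medium/High only, 16 with plasmid-identical fragments, 17 to 44 with 1 replicate left out, 29 without the 4 HE1 libraries, and 2909 with arrayWeights. Over all sites it called 1, and 5 with a pseudocount of 0.25, 3 with no filter, 2 without replicate 4, 0 without replicate 1 or 2, and 1026 with arrayWeights. Of the comparisons that called 0 of all features, arrayWeights called 27 windows between positive and Negative sets, 39 between higher gates and Low, 23, 7 and 24 in HB, HE2 and HP, and 6 and 3 sites. Shared fragments left out gave 4 windows, and every other setting at most 2.

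The replicate block called 0 members in each comparison, as the main fits did. Id2 between higher gates and Low was 0.78 (SE 0.28) with the block, and 0.27 to 1.29 over 16 alternatives. Its unadjusted p by limma was not under 0.05 with means over stages, Medium left out or replicate 3 or 4 left out. Its levels by gate in replicates 1 and 2 over HB and HE2 alone, an alternative chosen after seeing the data, stand beside the result.

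No member was called in a direction, and these log2 differences changed sign. Between positive and Negative, Bmp4 was -0.18 with arrayWeights, -0.11 with plasmid-identical fragments and -0.088 with High and Medium/High only. Smad6 was -0.043 with arrayWeights and Smad7 -0.28 with High and Medium/High only. Id1 was 0.10 with a pseudocount of 0.25, 0.11 with plasmid-identical fragments, 0.047 with distal and 0.022 with promoter fragments. Id3 was -0.0079 with 50 kb flanks and -0.24 with shared fragments left out. With 1 replicate left out, the ranges were -0.14 to 0.21 for Bmp4 (negative without replicate 5), -0.022 to 0.37 for Smad6 (without replicate 3) and -0.20 to 0.32 for Id1 (positive without replicates 2 and 4). Between higher gates and Low, arrayWeights gave 0.11 for Bmp4, -0.066 for Smad7 and 0.044 for Id1, plasmid-identical fragments 0.072 for Bmp4 and -0.0088 for Smad7, Medium left out -0.22 for Smad7, and distal fragments 0.0072 for Id1. With 1 replicate left out, Bmp4 ran from -0.23 to 0.10 (positive without replicate 5), Smad7 from -0.025 to 0.20 (negative without replicate 4) and Id1 from -0.56 to 0.22 (positive without replicate 4).

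Levels moved by more than 1 SD per 10000 distal fragments instead of all fragments, by construction, since the base is smaller. Positive means became 2.17 (Bmp4), 15.7 (Smad6), 11.3 (Smad7) and 8.33 (Id3), and Negative means 1.43 (Bmp4), 15.7 (Smad6) and 13.6 (Smad7). Per 10000 promoter fragments Smad6 was 1.51 (positive) and 0.969 (Negative). With plasmid fragments of at least 2 reads, Smad6 was 4.87 and Id2 1.22 per 10000. The cause of the other changes was not tested. Depth limits the small libraries of replicates 3 to 5, which hold few fragments per window.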
